A study of Saccharum hybrid cultivar with 12 samples.

Results

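This account concerns 1 contrast in sugarcane stalk: the ethephon effect in a low-sugar clone (LS) minus the ethephon effect in a high-sugar clone (HS), measured for every unigene that could be tested. The contrast is (LS_T minus LS_CK) minus (HS_T minus HS_CK) on the log2 scale, so a positive value means a higher effect in LS and a negative value a higher effect in HS. It compares 8 of the 12 libraries within a fit of all 12, in which 54433 of the 163054 unigenes had enough counts to test. HS is ROC22, a commercial variety with a labelled sucrose content of 15.0%, and LS is GT86-887, a non-commercial genotype with 6.0%. The third genotype, YT71-210 (MS, 12.6%), lies outside the contrast, but its libraries enter the fit and its estimate of the spread between replicates. Plants raised from stem cuttings were 8 months old when their leaves were sprayed with water (CK) or with ethylene at 400 mg per L prepared from ethephon (T), and developing stalk 20 cm above a leaf-bearing node was taken on day 7. Each group had 2 libraries, which the methods call biological replicates. The plot or plants behind each library are not given in the sources used here, so p-values measure the spread between these libraries. Each genotype is 1 clone, so a difference between HS and LS is a difference between 2 clones, and sugar content cannot be told apart from everything else in which they differ.

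Ethephon is taken up by the plant and breaks down to ethylene, a gaseous hormone. In Arabidopsis, ethylene receptors hold the signal off while no ethylene is bound, and binding releases EIN2, which acts through the transcription factors EIN3 and EIL1 to switch on ethylene responsive factor (ERF) genes. In sugarcane ethephon is sprayed as a ripener. Sucrose moves down the phloem into the stalk, where invertases split it into glucose and fructose, sucrose phosphate synthase (SPS) and sucrose phosphate phosphatase (SPP) make it again, and sucrose synthase (SUS) works in either direction.

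Library totals of the 8 libraries lay between 19765594 and 23898348 counts, and replicates of each group differed by more than sampling noise. The unigenes are assembled transcripts with no name or function in the deposited tables, so the labelled tissue could not be checked against marker genes and a role is given only where the text of the study names a unigene. Levels are given as CPM, the counts of a unigene per 1000000 counts of its scaled library. A unigene is called when its Benjamini-Hochberg adjusted p from edgeR's quasi-likelihood test is under 0.005 and its fold change, or the ratio of the 2 fold changes, is over 2. These are bulk libraries, in which fewer cells of a type and less RNA per cell cannot be told apart.

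The ethephon effect differed between LS and HS for 21 unigenes, 0.0386% of those tested, with 18 (0.0331%) showing the higher effect in LS and 3 (0.00551%) in HS. In the 18, ethephon raised the level in LS by 4.73-fold to 82.5-fold, while the change in HS lay between 0.559-fold and 1.79-fold. All 21 were called in LS on its own, where 1217 of the tested unigenes were (2.24%), and 2 were called in HS, where 6 were (0.011%). The LS and HS effects are the terms of the contrast that chose the 21, so these counts are a description and no test. The 18 fell into 3 kinds by how the clones stood to each other: 6 with LS called below HS under water and no gap called after ethephon, 8 with LS called below HS under water and above it after ethephon, and 4 with no gap called under water and LS called above HS after ethephon. The count of 21 depends on the spread that the MS libraries help to estimate: with the 8 HS and LS libraries alone 0 were called, 332 had an adjusted p under 0.05 and 5931 an unadjusted p under 0.05, and all 21 kept their direction there, with adjusted p from 0.0099 to 0.0195. Leaving out HS_CK replicate 1 raised the count to 146, of which 19 were among the 21, while leaving out any other of the 12 libraries lowered it to between 0 and 4.

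**Figure D1:**
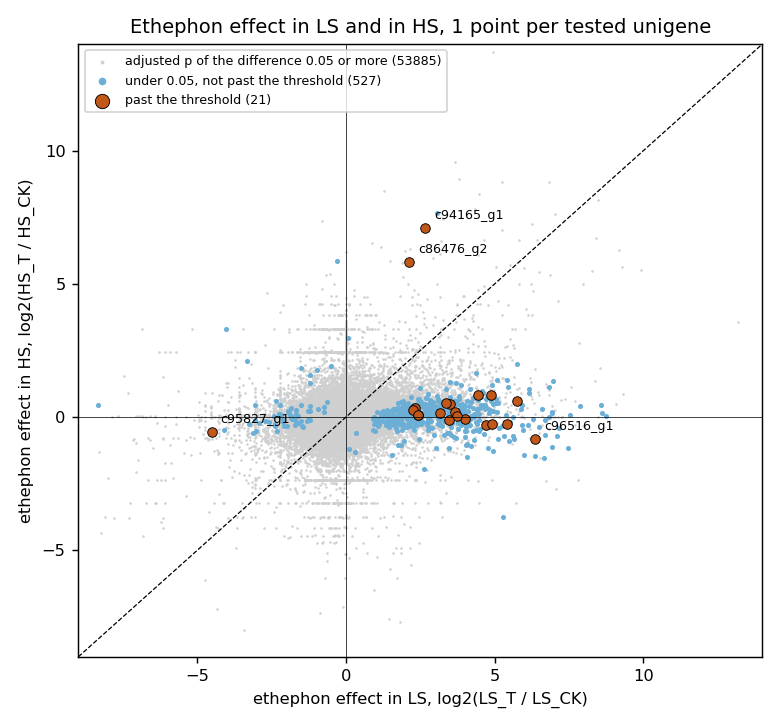
Each point is 1 of the 54433 tested unigenes, with the log2 fold change after ethephon in LS on the horizontal axis and in HS on the vertical axis; the dashed line marks equal effects. The 18 called unigenes with the higher effect in LS lie along the horizontal axis between 2.24 and 6.37, whereas c94165_g1 and c86476_g2 lie above the dashed line and c95827_g1 lies at the left.

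The smallest p-value was that of c78417_g1, which belongs to the 6 unigenes with a gap called under water alone. Its level was 0.919 and 0.813 CPM in the LS_CK libraries, 10.6 and 11.3 CPM in LS_T, 16 and 14.6 CPM in HS_CK, and 17 and 17.7 CPM in HS_T. LS under water stood apart from the other groups, far below HS, and after ethephon it came near to HS, whose 4 libraries lay close together. The gap left after ethephon was −0.66 in log2(LS/HS), with an adjusted p of 0.00722 by edgeR's quasi-likelihood test, short of the threshold. The ethephon effect was 3.66 on the log2 scale in LS and 0.18 in HS, a difference of 3.48 (SE 0.24, adjusted p = 0.00107 by edgeR's quasi-likelihood test). In MS the level was 1.66 and 1.63 CPM under water and 1.31 and 1.54 CPM after ethephon, low like that of LS under water and without a rise.

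The widest of these gaps was that of c81012_g1. It had 2 counts in each LS_CK library and 72 and 47 counts in those of LS_T, or 0.0835, 0.0813, 2.89 and 2.4 CPM, against 4.41 and 4.21 CPM in HS_CK and 3.6 and 3.51 CPM in HS_T. The groups of LS did not overlap, and the HS_T libraries were slightly below those of HS_CK. The difference in effect was 5.19 (SE 0.46, adjusted p = 0.00343), and it rests on the 4 counts that LS had under water. The other 4 unigenes of this kind were c104542_g1, c97654_g1, c102556_g1 and c86188_g1, with differences in effect of 2.33, 3.57, 1.97 and 1.98. Of these, c104542_g1 had 14.6 and 12.2 CPM in LS_CK, 67.4 and 75.2 CPM in LS_T, 44 and 56.2 CPM in HS_CK and 56.5 and 49 CPM in HS_T. Its HS groups overlapped, and its LS_T libraries lay above every HS library. In MS it had 12.1 and 10.4 CPM under water and 24 and 23.8 CPM after ethephon, an effect of 1.09 with an adjusted p of 0.0255, short of the threshold. For c86188_g1 the gap after ethephon was 0.79 in log2(LS/HS) with an adjusted p of 0.00244, and it missed the call on the fold limit alone.

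Among the 8 unigenes with LS called below HS under water and above it after ethephon, c96516_g1 had the largest difference in effect of all 21. Its level was 3.88 and 3.29 CPM in LS_CK and 332 and 261 CPM in LS_T, an 82.5-fold rise, while HS had 16.7 and 60.2 CPM under water and 25.3 and 17.6 CPM after ethephon. The HS_CK libraries differed from each other more than the HS groups did, so no direction can be given for HS, but every LS_T library was above every HS library and every LS_CK library below. The difference was 7.21 (SE 0.74, adjusted p = 0.00479) and lay between 6.01 and 7.85 with any 1 of the 8 libraries left out. In MS the levels were 6.52 and 12.6 CPM under water and 2.39 and 2.22 CPM after ethephon, an effect of −2.05, opposite in sign to that in LS, which did not pass edgeR's test (adjusted p = 0.133).

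Another of the 8, c89535_g2, was higher after ethephon in all 3 clones but by different amounts. It stood at 1.84 and 1.91 CPM in LS_CK and at 35.6 and 46.7 CPM in LS_T, and it went from 4.45 and 5.92 CPM to 10.4 and 8.18 CPM in HS and from 1.27 and 0.988 CPM to 4.32 and 6.69 CPM in MS. Ethephon and water libraries did not overlap in any clone, and the step was widest in LS. The fold changes were 21.9 in LS, 4.89 in MS (adjusted p = 0.012) and 1.79 in HS, where the adjusted p of 0.767 missed the threshold, and the difference between LS and HS was 3.61 (SE 0.36, adjusted p = 0.00479). The other 6 of this kind were c78200_g1, c85159_g2, c79242_g1, c103444_g1, c98897_g2 and c93783_g1, with differences between 2.35 (c93783_g1) and 5.15 (c98897_g2). For c98897_g2 the level was 1.46 and 0.894 CPM in LS_CK, 73 and 54 CPM in LS_T, 6.81 and 14 CPM in HS_CK and 18.9 and 12.5 CPM in HS_T. The HS groups overlapped again, whereas LS passed from the lowest to the highest of the groups.

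The 4 unigenes with no gap called under water were c100584_g1, c91823_g1, c90996_g3 and c100049_g1. The first of these, c100584_g1, had 0.543 and 0.691 CPM in LS_CK and 0.829 and 0.702 CPM in HS_CK, and after ethephon 36.3 and 16.1 CPM in LS against 0.6 and 0.682 CPM in HS. It stayed at 0.804 to 1.38 CPM in the 4 MS libraries, so high levels occurred in the LS_T libraries and in no other group. The difference in effect was 5.66 (SE 0.62), with an adjusted p that rounds to 0.005 and lies just under it. For c91823_g1 the levels were likewise high in LS_T alone, with 0.459 and 0.61 CPM in LS_CK, 18.3 and 13.3 CPM in LS_T, and 0.742 to 1.48 CPM over the 4 HS libraries. For c90996_g3 the difference was 3.69, and for c100049_g1, at 6.42 and 6.72 CPM in LS_CK and 67.6 and 81 CPM in LS_T, it was 3.00.

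**Figure D2:**
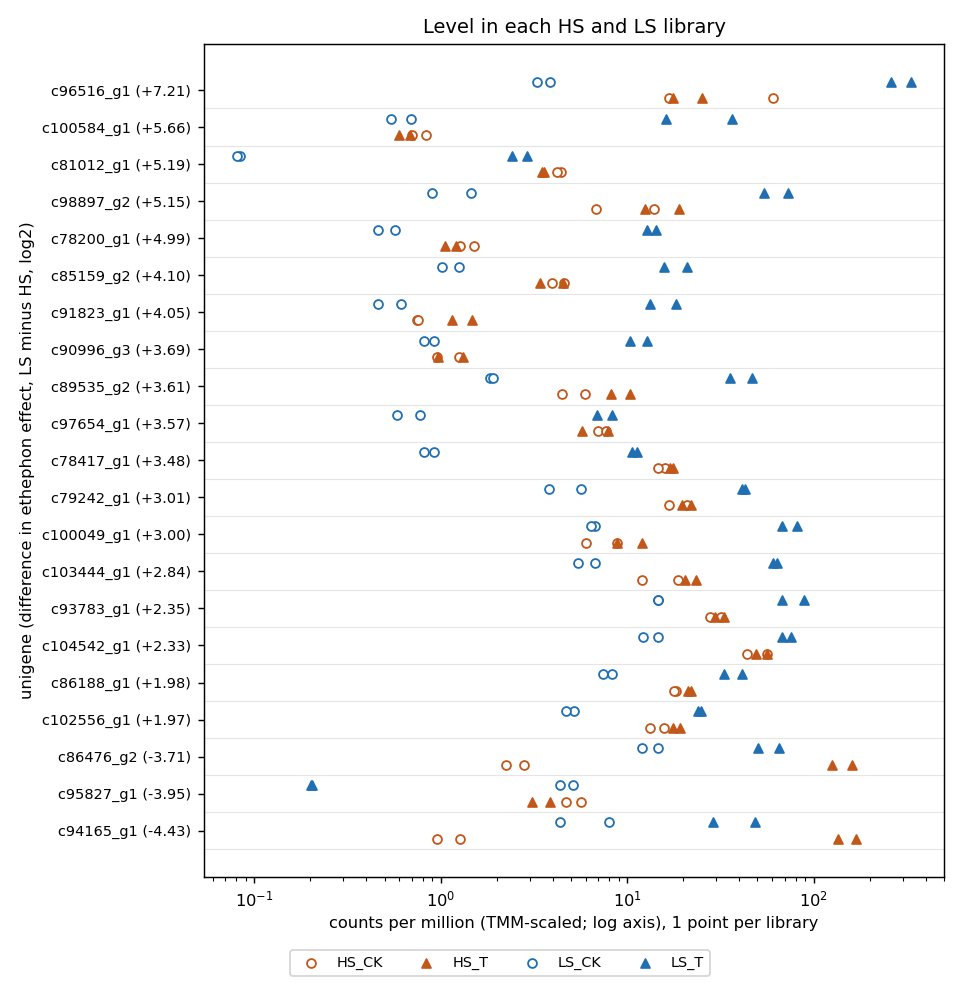
Each row is 1 of the 21 called unigenes, ordered by the difference in ethephon effect given beside its name, and each point is 1 library placed by its CPM on a log axis (HS in orange, LS in blue, water as open circles, ethephon as filled triangles). In the upper 18 rows the blue triangles lie far to the right of the blue circles while the orange symbols span less, from 16.7 to 60.2 CPM for c96516_g1, and in the rows of c94165_g1 and c86476_g2 triangles lie to the right of circles in both colours, further so in orange.

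The 3 unigenes with the higher effect in HS were of different kinds. The level of c94165_g1 was 1.27 and 0.953 CPM in HS_CK and 168 and 135 CPM in HS_T, against 4.34 and 7.97 CPM in LS_CK and 48.4 and 29 CPM in LS_T. Ethephon raised it in both clones with no overlap, and HS went from below LS to above it. It rose 135-fold in HS and 6.28-fold in LS, a difference of −4.43 (SE 0.46, adjusted p = 0.00479). MS lay between them, rising 41.8-fold from 2.04 and 2.67 CPM to 94.3 and 103 CPM (adjusted p = 0.00062).

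The second, c86476_g2, followed the same course. Its libraries held 2.23 and 2.81 CPM in HS_CK, 161 and 125 CPM in HS_T, 12 and 14.6 CPM in LS_CK and 65.2 and 50.2 CPM in LS_T. Again both clones rose without overlap and exchanged places, and the difference was −3.71 (SE 0.39, adjusted p = 0.00479). The MS effect of 2.62 (adjusted p = 0.00789) was above the 2.12 of LS and below the 5.83 of HS.

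The third, c95827_g1, was the only called unigene that fell in LS. It had 4.39 and 5.12 CPM in LS_CK and 0.201 and 0.204 CPM in LS_T, where 5 and 4 counts remained, against 5.63 and 4.71 CPM in HS_CK and 3.09 and 3.88 CPM in HS_T. The clones overlapped under water, and after ethephon LS lay far below HS. It fell by 4.52 on the log2 scale in LS and the value in HS was −0.57, which gives a difference of −3.95 (SE 0.41, adjusted p = 0.00479). MS had 9.44 and 10.8 CPM under water and 4.83 and 3.31 CPM after ethephon, an effect of −1.32 (adjusted p = 0.0374).

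Set against each other directly, LS was lower than HS under water in all 18 unigenes with the higher effect in LS, with 14 called, and after ethephon it was lower in 2, with 12 called higher in LS. Over all tested unigenes LS was the higher clone in 51.8% under water and 51.3% after ethephon, 15.3% were called under water (6.41% lower in LS) and 14.5% after ethephon (8.16% higher in LS). The same 8 libraries made the interaction call, so these counts describe the 21 and test nothing. The median of log2(LS/HS) over the 18 was −1.51 under water and 1.76 after ethephon. Of the 21, the gap was called in both states for 10, under water alone for 6 and after ethephon alone for 5, and its sign turned in 18.

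**Figure D3:**
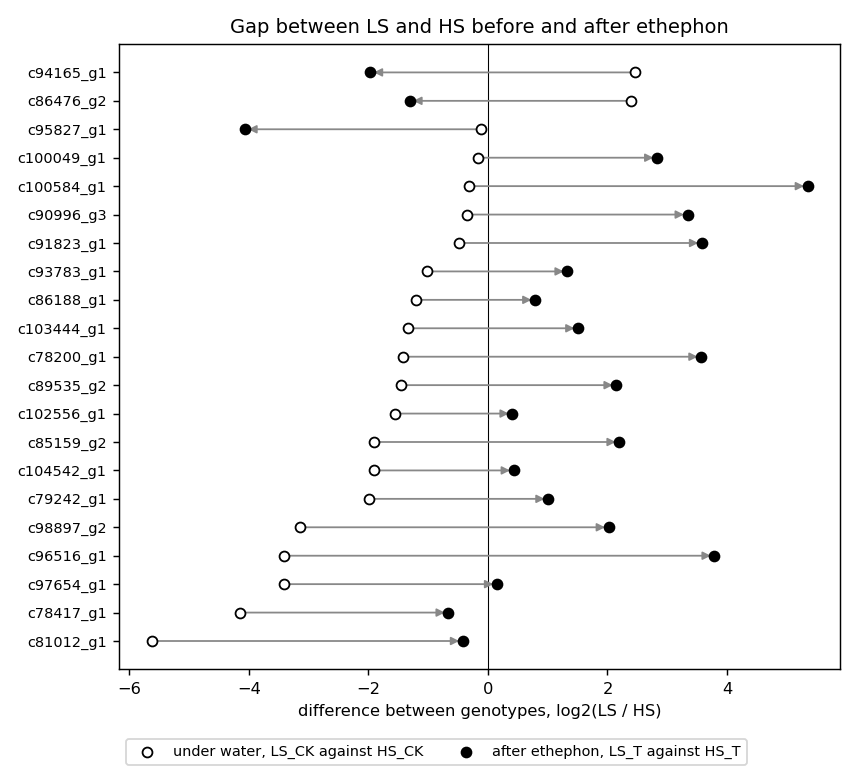
For each of the 21 called unigenes the open circle gives log2(LS/HS) under water and the filled circle the same after ethephon, joined by an arrow. Most arrows run from the left of the zero line to its right, and those of c94165_g1 and c86476_g2 run from 2.46 and 2.40 on the right to −1.97 and −1.31 on the left.

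The MS effect is no term of the contrast, although the MS libraries helped to decide which unigenes passed, through the estimate of the spread: leaving out any 1 of them left 1 or 2 of the 21. In MS, 5 of the 21 were higher after ethephon and 3 lower with an unadjusted p under 0.05, against 6.48% and 5.83% of all tested unigenes, and 5 had an adjusted p under 0.05 (0.553% of all). These 5 were c94165_g1, c86476_g2 and c95827_g1, which are the 3 with the higher effect in HS, and c89535_g2 and c104542_g1. For the 18 with the higher effect in LS the median effect was 3.69 in LS, 0.11 in HS and 0.19 in MS, and 11 of 18 were positive in MS against 49% of all tested unigenes. The difference between the LS and MS effects was not tested here for these unigenes.

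The 21 had more counts than the tested unigenes at large, with a median of 3.99 on the log2 CPM scale against 1.03. This level averages all 12 libraries, those of LS_T included, so the rise of called unigenes in LS is part of it. The test had less to work with at low levels: the median standard error of the difference was 0.92 below a log2 CPM of 0 and 0.23 between 4 and 6. The share with an adjusted p under 0.05 was 0.116% and 2.23% in these 2 ranges, and it was 1.32% above a log2 CPM of 6, where the median standard error was 0.24 and 0 were called. Small differences of unigenes with few counts were not detectable in these libraries, and the parts of depth and of replicate spread in this were not tested. The effective length implied by counts and FPKM (fragments scaled by unigene length and library size) had a median of 1151 bp over the 21 and 736 bp over all tested. Of the 21, 66.7% were the only unigene of their Trinity component, the assembler's unit of related transcripts, against 43.2% of all.

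Some of the 21 had a tested partner in the same component. Reads of c98897_g1 went with those of c98897_g2, with 2.88 and 1.38 CPM in LS_CK, 125 and 93 CPM in LS_T and 10.5 to 34.2 CPM in HS, a difference of 5.04 (adjusted p = 0.0104). Its LS_T libraries were above all others, as for the called partner. The partner of c86476_g2, c86476_g1, gave a difference of 0.56 with an SE of 2.12, and −2.69 to 4.53 with 1 library left out, which is too uncertain to set against the −3.71 of c86476_g2. It had 2 counts in HS_CK and 40 in HS_T, a ratio of 20.8 with a 95% counting interval from 5.41 to 178. Its implied effective length was only 62 bp, an uncertainty that the interval does not cover. The partners c85159_g1, c89535_g1 and c90996_g2 gave 2.54 (SE 0.57), 1.04 (SE 0.27) and 0.74 (SE 0.23), none with an adjusted p under 0.05. For c90996_g1 and c78417_g2 no difference is given, since the HS libraries held at most 1 count of the former and 0 of the latter. Transcripts of 1 component can share reads, so the values of these unigenes are uncertain. With counts summed over components 17 of the 21 were still called. The component of c90996_g3 then gave a difference of 1.17 (adjusted p = 0.0307), against 3.69 for c90996_g3 itself. Those of c98897_g2, c86476_g2 and c100584_g1 also missed the threshold, with adjusted p from 0.00531 to 0.00773.

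Just past the threshold stood c100584_g1 and c86188_g1 (adjusted p = 0.00487). Just outside it stood c90727_g1, c87889_g2 and c102738_g2, with differences of 3.03, 3.62 and 2.40 and an adjusted p of 0.00517 each. With the limit set at an adjusted p of 0.05 whatever the fold, the effects differed for 548 unigenes (1.01%), 482 with the higher effect in LS and 66 in HS. Of the 482, 458 were called as risen in LS, and the 482 had a median effect of 2.85 in LS beside 0.10 for HS. Of the 66, 45 were called as fallen in LS, and their median effect in LS was −1.83 beside 0.06 for HS. At either limit most differences thus came with a change in LS and a median in HS near 0, a split that the contrast itself uses and that is given as a description.

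The HS effect can be read for unigenes chosen in LS, since the LS and HS effects share no library. The p-values of both use the same estimate of the spread, to which the HS libraries contribute, so they are not fully independent. Of the 1042 unigenes called as risen in LS (1.91% of those tested), 821 had a positive effect in HS, or 78.8% against 47.4% of all tested. With an unadjusted p under 0.05, 21.2% of them were higher in HS after ethephon and 0.48% lower, against 2.24% and 1.78% of all tested. The median fold change was 1.22 in HS, beside a median of 5.97 for LS that the choice of these unigenes by their LS change favours. Of the 175 called as fallen in LS (0.321%), 150 were lower in HS after ethephon, 29.1% with an unadjusted p under 0.05, and the median fold change was 0.783 in HS, beside 0.264 for LS, where they were chosen. The number called as risen rests on single libraries, falling to 89 and 87 without LS_CK replicates 1 and 2 and to 520 and 563 without those of LS_T. Of these smaller sets 87.6%, 88.5%, 83.5% and 77.4% had a positive effect in HS. With the call in LS made on the 4 LS libraries alone, 934 were called as risen, and 77.1% of them had a positive effect in HS. Over all 54433 unigenes the effects of the clones had a Pearson r of 0.220 and a Spearman rho of 0.214, and over the 15683 with a log2 CPM of at least 3 the r was 0.342. These are descriptions across unigenes, which share their 8 libraries and are not independent replicates.

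The shift in HS was uneven between its libraries. The median over the 1042 unigenes of log2(CPM + 0.1), relative to the mean of the HS_CK libraries, was −0.16 and 0.16 in HS_CK and 0.44 and 0.16 in HS_T. HS_CK replicate 2 was thus as high as HS_T replicate 2, and the HS groups did not separate. In LS the medians were −0.85 and −0.82 under water and 1.56 and 1.42 after ethephon, far apart, and the LS_CK libraries were the lowest of all 12. These unigenes were chosen by their rise between the same LS libraries, which favours both. In MS the medians were −0.58 and −0.45 under water and −0.24 and −0.36 after ethephon. With each HS library left out in turn the median effect in HS, 0.28 on the log2 scale, lay between 0.13 and 0.56. The part of HS_CK replicate 2 in the results was not tested beyond leaving it out, which left 2 called differences between LS and HS.

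**Figure D4:**
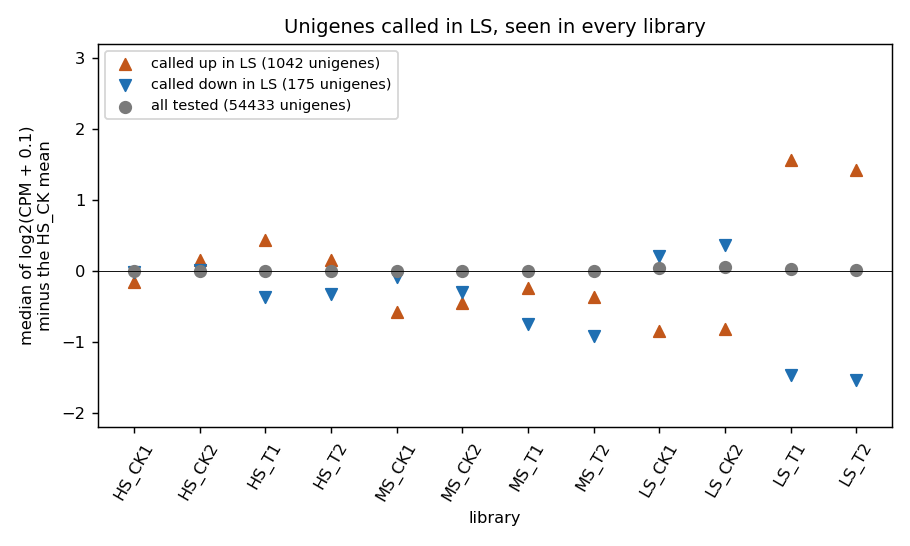
The vertical axis gives the median of log2(CPM + 0.1) relative to the mean of the HS_CK libraries, for each of the 12 libraries on the horizontal axis, over the 1042 unigenes called as risen in LS (orange), the 175 called as fallen (blue) and all tested (grey). The orange symbols of LS, the libraries by which these unigenes were chosen, lie at −0.85 and −0.82 under water and at 1.56 and 1.42 after ethephon. Those of HS and MS lie between −0.58 and 0.44.

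Looked at from the side of HS, the 6 called unigenes had higher levels after ethephon, and each was called as risen in LS too, against 1.91% of tested unigenes. Besides c94165_g1 and c86476_g2 they were c78706_g2, c89405_g1, c69704_g1 and c76401_g1. The effect was larger in HS for 5 of the 6, a direction that choosing them in HS favours. For c69704_g1 the levels were 0.349 and 0.1 CPM in HS_CK, 54.8 and 40.9 CPM in HS_T, 0.501 and 2.15 CPM in LS_CK and 13.9 and 8.12 CPM in LS_T. Both clones rose with no overlap, HS more, with a difference of −4.61 (SE 0.84, adjusted p = 0.0316, short of the threshold). For c76401_g1 HS held 3 counts under water and 1014 after ethephon, a ratio of 352 with a 95% counting interval from 120 to 1710. Its implied effective length was only 25 bp, against a median of 736 bp over all tested, an uncertainty that the interval does not cover. The difference in effect of c76401_g1 changed sign when single libraries were left out (−7.65 to 1.03).

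The exception was c89405_g1, which the study lists among its methyltransferases, enzymes that add methyl groups. It had 11.7 and 10.4 CPM in HS_CK, 221 and 146 CPM in HS_T, 0.0835 and 0.122 CPM in LS_CK and 8.87 and 5.51 CPM in LS_T. LS after ethephon did not reach HS under water, although its fold change was the larger. The log2 effects were 6.06 in LS and 4.04 in HS, and their difference of 2.01 (SE 0.72) did not pass the test (adjusted p = 0.286).

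Of the 78 unigenes that the study names in its text for sucrose metabolism, ATPases, cell walls, transcription and epigenetic modification, all were tested and 0 were called for the difference between LS and HS. The study chose them on these samples, so their directions are not independent evidence. With an unadjusted p under 0.05, 7 had the higher effect in LS and 2 in HS, against 6.55% and 5.13% of all tested, and 1 had an adjusted p under 0.05. DESeq2's Wald test called 2 of the 78. The median difference was 0.12 over the 78 and −0.07 over all tested.

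The membrane ATPases stood furthest from 0, with a median of 1.70 over 4 unigenes, all positive, against 44.5% positive among all tested. Each was higher after ethephon in LS and in HS with an unadjusted p under 0.05, which 12.1% and 2.24% of all tested unigenes were, and 3 were called in LS. The study named these ATPases for their induction by ethylene in these same samples, so their rise is no independent evidence. The unigene with the adjusted p under 0.05 was c87964_g1, given as ACA2, which in Arabidopsis is a calcium pump of the endoplasmic reticulum. Its level was 9.19 and 8.5 CPM in LS_CK, 83.6 and 67.1 CPM in LS_T, 9.73 and 10.2 CPM in HS_CK and 18.1 and 12.1 CPM in HS_T. The clones lay close together under water, ethephon and water libraries did not overlap in either, and LS ended far above HS. The change was 8.52-fold in LS and 1.51-fold in HS, a difference of 2.49 on the log2 scale (SE 0.29) with an adjusted p of 0.00594, just short of the threshold. In MS it went from 3.6 and 3.75 CPM to 7.32 and 5.75 CPM, an effect of 0.82. It passed the threshold in 5 of 8 fits with another test, scaling, filter, depth, block or choice of genotypes, DESeq2's Wald test among them, and in none of the 12 fits with 1 library left out, with adjusted p from 0.00548 to 0.042 where that was an HS or LS library.

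The other ATPases had fewer counts and larger errors. For c79387_g1, at 0.919 and 1.67 CPM in LS_CK and 8.51 and 11.1 CPM in LS_T, the difference was 1.92 (SE 0.53, adjusted p = 0.148). For c87456_g3, given as AATP1, the effects were 4.44 in LS and 3.38 in HS and the difference of 1.06 was close to its standard error of 0.94. For c101111_g2, given as ATPase2, LS held 3 counts under water and 30 after ethephon, a ratio of 10.3 with a 95% counting interval from 3.21 to 52.8, and the difference was 1.49 (SE 1.07). The implied effective length of c101111_g2 was only 40 bp, an uncertainty that the interval does not cover.

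Of the 7 invertase unigenes 6 had a positive difference, with a median of 0.38, and 0 were called. The 2 with an unadjusted p under 0.05 belong to 1 component and are given as CWINV3, a cell wall invertase, which splits sucrose outside the cell. For c102611_g1 the level was 12.9 and 11.7 CPM in LS_CK, 21.4 and 25.3 CPM in LS_T, 28.1 and 22.7 CPM in HS_CK and 24.7 and 27.1 CPM in HS_T. LS was 1.9-fold higher after ethephon and then near the level of HS, whose groups overlapped, and the difference was 0.90 (SE 0.23, adjusted p = 0.118). For c102611_g2, at 1.1 to 6.81 CPM in HS and LS, it was 1.35 (SE 0.51, adjusted p = 0.314). The cytosolic invertase c93030_g1, given as CINV2, gave 0.38 (SE 0.25), and the 4 unigenes given as sucrose alpha-glucosidase gave −0.54 (c91663_g1), 0.06 (c93760_g1), 0.73 (c84505_g3) and 0.22 (c99737_g1). Of these, c91663_g1 was the one with a negative value, and its level lay between 101 and 141 CPM in HS and between 13.6 and 23 CPM in LS.

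Among the 5 unigenes of sucrose synthesis and cleavage by SPS, SPP and SUS, SPP2 stood apart from the rest. Its unigene, c91176_g1, had 11.4 and 11 CPM in LS_CK, 30.9 and 33.2 CPM in LS_T, 5.11 and 7.07 CPM in HS_CK and 6.83 and 5.72 CPM in HS_T. LS was above HS already under water and moved further away, while the HS groups overlapped. The change was 2.85-fold in LS, which was called (adjusted p = 0.00192), and 1.03-fold in HS, and the difference of 1.47 (SE 0.31) had an adjusted p of 0.0559. MS went from 4.72 and 3.46 CPM to 7.7 and 10.4 CPM, an effect of 1.15.

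The 2 SPS unigenes, c72504_g1 and c72030_g1, gave differences of 0.01 and 0.13 with a standard error of 0.30 each, with effects of 0.34 and 0.32 in LS and 0.33 and 0.19 in HS. SUS3 (c83314_g1) gave 0.11 and SUS4 (c96004_g2) 0.42, with standard errors of 0.29 and 0.30. SUS4 had the most counts of the 5, with 416 and 416 CPM in LS_CK, 711 and 806 CPM in LS_T, 499 and 390 CPM in HS_CK and 614 and 600 CPM in HS_T. Ethephon libraries were above water libraries in both clones, with effects of 0.87 in LS (adjusted p = 0.0282) and 0.45 in HS (adjusted p = 1), and the difference in effect did not pass the test.

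**Figure D5:**
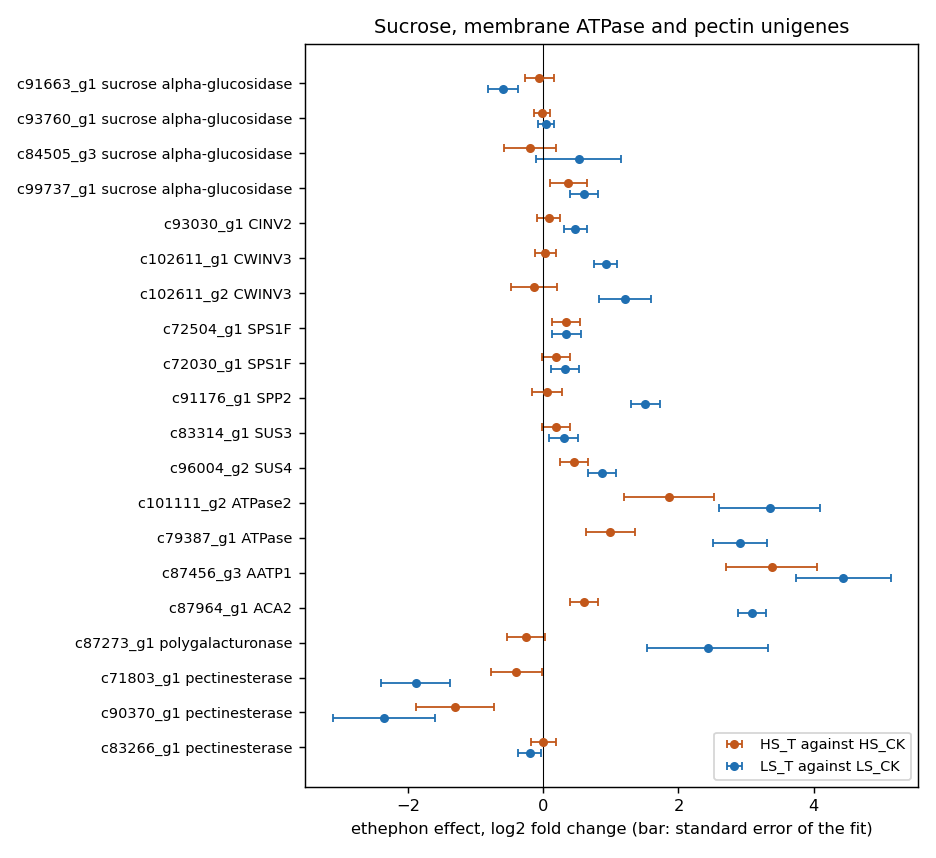
Points give the log2 fold change after ethephon in HS (orange) and LS (blue) for the invertase, sucrose synthesis, membrane ATPase and pectin unigenes named in the text of the study, and bars give the standard error of the fit. The blue and orange points of ACA2 lie at 3.09 and 0.60 and those of SPP2 at 1.51 and 0.05, whereas for the 2 SPS1F unigenes they nearly coincide.

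Of the 4 pectin unigenes, whose enzymes trim and cut a cell wall polymer, 1 differed in each direction at an unadjusted p under 0.05. The polygalacturonase c87273_g1 gave 2.69 (adjusted p = 0.305) from 1 count in LS_CK and 6 in LS_T, a ratio of 6.19 with a counting interval from 0.751 to 285. The pectinesterase c71803_g1 gave −1.49 (adjusted p = 0.396), with 1.09 and 1.3 CPM in LS_CK, 0.241 and 0.409 CPM in LS_T and 2.4 to 4.54 CPM in the HS libraries. Its LS groups did not overlap. The 10 unigenes of starch, glucans and other carbohydrates had a median of 0.20, with 0 below an unadjusted p of 0.05.

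The ethylene responsive factor named in the text, c81582_g1, had nearly the same effect in both clones. It had 3.72 and 4.07 CPM in LS_CK, 3.05 and 2.55 CPM in LS_T, 12.1 and 11.5 CPM in HS_CK and 7.15 and 10.4 CPM in HS_T. Ethephon libraries were below water libraries in each clone, with effects of −0.47 in LS and −0.42 in HS that did not pass the test, and the difference was −0.04 (SE 0.31, adjusted p = 1). By qRT-PCR the study reports that the transcript of this ERF rose after ethylene in every genotype. That direction was not seen in the HS and LS libraries here, and the reason for the conflict was not tested. The study's statement that ERFs responded more in LS rests on a figure of ERFs as a group. The values of this ERF alone do not test that statement. The 28 transcription factor unigenes, this ERF among them, had a median of −0.03, and 1 of them, c93121_g3, gave an unadjusted p under 0.05, with −1.55 (adjusted p = 0.293). The medians were 0.15 over 17 methyltransferases and −0.30 over 4 acetyltransferases, each with 0 called, and c89405_g1 was the methyltransferase with an unadjusted p under 0.05.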

How the data were processed

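RNA from developing stalk of 3 sugarcane clones, HS, MS and LS, under water (CK) or ethephon (T), gave 12 libraries, 2 per group, grouped by their titles. Per the labels and the study's methods, the authors removed adapters and low-quality or short reads, assembled the clean reads with Trinity and aligned them to the unigenes with RSEM; versions are not given in the sources used here. The deposited expected counts are unscaled RSEM estimates. The deposited FPKM values were made by the authors from the uniquely aligned reads, scaled by unigene length and library size.

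Expected counts were rounded (0.893% to 1.19% of values were not whole). With R 4.3.3 and edgeR 4.0.16, filterByExpr (minimum count 10) kept the unigenes, libraries were scaled by TMM (factors 0.919 to 1.09), and the quasi-likelihood model (glmQLFit, glmQLFTest) had a coefficient for each group of all 12 libraries (6 residual degrees of freedom, biological coefficient of variation 0.207). The standard error is the log2 value over the square root of F. The limits (adjusted p under 0.005, fold over 2) are those of the study's methods; DEGseq was not run. Library totals lay between 19765594 and 28747056 counts. Counting intervals (exact, 95%) cover counting error only.

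The unigenes named, the lists and the tests were chosen with earlier results of these data known. Named are all unigenes called in the interaction or in HS, tested unigenes of their Trinity component, and from the study's lists the invertase, sucrose synthesis, ATPase and ERF unigenes and those with an unadjusted p under 0.05; the 3 unigenes just outside the limits and the other pectin unigenes in the plot were added after their values were seen. Alternatives were the 8 HS and LS libraries alone, the 4 libraries compared, DESeq2 1.42.0 (size factors; Wald test), no count filter, limma 3.58.1 on log2(FPKM + 1), thinned counts, sums per component, replicate blocks, other limits, and each library left out. The fits were also run on counts simulated from edgeR's own fitted means and spread, which cannot test how well that model describes these libraries. Figures used Python 3.11.15 and matplotlib 3.10.9. Sucrose, qRT-PCR and the annotation were not analysed here.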

Additional observations from a re-analysis of the deposited data

Results flagged for a closer look

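All 21 called unigenes stood out because the ethephon effect differed between LS and HS by the test of the difference itself. The log2 difference, LS minus HS, was 3.48 for c78417_g1, 4.99 for c78200_g1, 4.10 for c85159_g2, 5.19 for c81012_g1, 3.01 for c79242_g1, 2.33 for c104542_g1 and 3.61 for c89535_g2. It was 4.05 for c91823_g1, 7.21 for c96516_g1, 1.97 for c102556_g1, 3.57 for c97654_g1, 2.84 for c103444_g1, 5.15 for c98897_g2 and 3.69 for c90996_g3. It was 3.00 for c100049_g1, 2.35 for c93783_g1, 1.98 for c86188_g1 and 5.66 for c100584_g1. It was negative for c94165_g1 (−4.43), c95827_g1 (−3.95) and c86476_g2 (−3.71).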

How the results depend on the processing

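All 21 differences between the LS and HS effects kept their sign, and an adjusted p under 0.05, in every fit over unigenes listed here, the highest adjusted p with 1 library left out being 0.0425; the number past the threshold did not hold. Against 21, the count was 0 with the 8 HS and LS libraries alone, 39 with DESeq2's size factors, 865 with DESeq2's Wald test, 1739 without a count filter and 548 at an adjusted p under 0.05 with no fold limit; it lay between 0 and 146 with 1 library left out. It was 0 without HS_T replicate 1, without HS_T replicate 2 and without LS_CK replicate 2, where edgeR gave 254, 47 and 118 with an adjusted p under 0.05 and 5122, 4835 and 4597 with an unadjusted p under 0.05. DESeq2's Wald test called all 21, limma 5 of them among its 28. For the effect in LS (1217 called) the counts were 761 with the 8 libraries, 2682 with DESeq2's Wald test, 4293 without a filter and 5201 at the looser limit, and 95 to 1525 with 1 library left out. For the effect in HS (6 called) they were 2 with the 8 libraries, 0 with the 4 libraries compared, 91 with DESeq2's Wald test, 863 without a filter and 19 at the looser limit, and 2 to 10 with 1 library left out. Among the study's 78 unigenes, 9 had an unadjusted p under 0.05, 14 without a filter and 6 to 14 with 1 library left out (14 without LS_T replicate 1). The cause of these changes was not tested.

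In the pairing check same-numbered replicates deviated together in HS (r = 0.239) and not in MS (−0.111) or LS (−0.0177), and the labels give the numbers no shared source, so they are not taken as pairs. A replicate block gave 26 calls, 17 of them among the 21, and a replicate block within each genotype gave 0, with 98 at an adjusted p under 0.05, 5161 at an unadjusted p under 0.05 and 488 calls for the effect in LS.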
